A study of Mus musculus with 14 samples.

Results

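The genes described here encode 10 matricellular and related matrix proteins: Sparc, Spp1, Tnc, Thbs1, Thbs2, Postn, Ctgf, Cyr61, Fn1 and Sparcl1. They were taken by gene symbol from a pair of mouse read-count tables, and all 10 had a row among the 23420 rows of each table, Ctgf and Cyr61 under these older symbols (now Ccn2 and Ccn1). The series concerns p62, the autophagy adaptor encoded by Sqstm1, and its binding partner the vitamin D receptor in fibrotic and cancerous liver. One table held livers of p62-deficient mice (p62KO, 3 libraries) and of wild-type mice (WT, 3 libraries), and every animal had received diethylnitrosamine (DEN), a liver carcinogen, and a high-fat diet. The other held hepatic stellate cells (HSC) isolated from p62KO or WT livers, all immortalized with the SV40 antigen and grown in serum-containing medium: p62KO cells with calcipotriol (2 libraries), p62KO cells with vehicle (2), WT cells with calcipotriol (2) and WT cells with vehicle (2). Calcipotriol is a synthetic agonist of the vitamin D receptor. The p62 allele, the strain and age of the mice, the dose and time of calcipotriol, and the number of cell lines per genotype are not stated in the labels used here, so the stellate cell genotype contrasts hold for the particular lines that were sequenced. Nothing says that the stellate cell replicates came from separate cultures, and their p-values therefore measure only the spread between these libraries, which may be technical.

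Matricellular proteins are secreted into the extracellular matrix but, unlike collagens, mainly act by binding cell-surface receptors, growth factors and proteases. They are sparse in most resting adult tissue and are induced in wound repair, fibrosis and the stroma of tumours. In injured liver, activated stellate cells (myofibroblasts) are a main source, while osteopontin (Spp1) is also made by bile duct cells and macrophages, and fibronectin (Fn1) is made by hepatocytes as a plasma protein as well as by stellate cells.

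Total counts were 17506607 to 20040583 per liver library and 15207117 to 29079258 per stellate cell library. Sqstm1 checked the genotype labels: it stood at 1.44 to 2.12 CPM (counts per 1000000 of the scaled library total) in p62KO livers, against 448 to 583 CPM in WT livers, and at 0.211 to 0.835 CPM in p62KO stellate cells, against 316 to 340.3 CPM in WT stellate cells. The stellate cells held 4478 to 8028 (p62KO) and 2279 to 2693 (WT) CPM of Col1a1 with calcipotriol and 3061 to 3385.5 (p62KO) and 2256 to 2325 (WT) CPM with vehicle, and their 8 hepatocyte markers summed to at most 0.179 CPM. Of 11 stellate cell and fibroblast markers, 4 were under 1 CPM in all 8 stellate cell libraries: Lrat, the enzyme of retinoid storage, had no count (a limit of 0.107 to 0.204 CPM per library, set at 3 counts), and Des, Reln and Rgs5 reached at most 0.926 CPM. Replicates did not spread alike. Chi-squared per degree of freedom between the counts of a pair was 200.4 for p62KO calcipotriol, 61 for p62KO vehicle, 12.2 for WT calcipotriol and 1.66 for WT vehicle cells. Of the p62KO libraries, vehicle replicate 1 and calcipotriol replicate 2 were reported to stand apart by an earlier reading of these data, so the stellate cell results below are also given without both.

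Together the 10 genes took up 0.299 ± 0.106% of the counts of p62KO livers and 0.138 ± 0.00553% of those of WT livers (SD, n = 3 each). In stellate cells they took up 1.68 ± 0.268% with calcipotriol and 1.40 ± 0.244% with vehicle in p62KO cells, and 1.69 ± 0.0848% with calcipotriol and 1.95 ± 0.00858% with vehicle in WT cells (SD, n = 2 each). To compare genes with each other, levels were divided by transcript length (CPM per kb). The tables were scaled separately, so levels are only set side by side across them and never tested.

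In p62KO livers the highest per-kb levels were those of Spp1 (243 ± 128 CPM per kb) and Fn1 (236 ± 77.5), which did not differ beyond their spread, followed by Sparc (149 ± 61.4; SD, n = 3). In WT livers Fn1 led (144 ± 12.1 CPM per kb), ahead of Spp1 (51.4 ± 17.2) and Sparc (35.3 ± 3.65; SD, n = 3). Ctgf came next in both liver groups, at 22.03 ± 6.86 CPM per kb in p62KO and 11.7 ± 5.04 CPM per kb in WT livers. Postn followed, at 14.5 ± 3.74 against 5.80 ± 0.858 CPM per kb. Cyr61 and Sparcl1 lay next (6.55 ± 0.619 and 5.58 ± 1.40 CPM per kb in p62KO livers) and did not differ from each other beyond their spread there. Thbs1, Thbs2 and Tnc were the 3 lowest in both liver groups, at 1.58 to 2.77 CPM per kb in p62KO and 0.514 to 1.46 CPM per kb in WT livers.

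In the stellate cells the order was another one. Sparc was highest and Ctgf second in all 4 groups: with vehicle, Sparc stood at 1126 ± 368 CPM per kb in p62KO and 2310.4 ± 64.7 CPM per kb in WT cells, and Ctgf at 1090.2 ± 229 CPM per kb in p62KO and 1539 ± 5.83 CPM per kb in WT cells (SD, n = 2 each). In p62KO cells with vehicle these 2 did not differ beyond their spread. Cyr61 took rank 3 in p62KO cells (932 ± 173 CPM per kb with vehicle) and rank 5 in WT cells (445 ± 1.19 with vehicle). Thbs1 took rank 4 in p62KO cells with vehicle (558 ± 81.0 CPM per kb) and rank 3 in WT cells (1019 ± 1.53 with vehicle). Fn1, the leading gene in WT liver, took rank 4 in p62KO cells with calcipotriol (578 ± 184 CPM per kb), rank 5 in p62KO cells with vehicle (308 ± 154) and rank 6 in WT cells (271 ± 1.26 with vehicle). Tnc, Thbs2 and Postn were low in every stellate cell group, between 1.69 and 108 CPM per kb. Sparcl1, the only member that was nearly silent, had 4 and 2 counts in p62KO calcipotriol, 7 and 0 in p62KO vehicle, 5 and 3 in WT calcipotriol and 1 and 2 in WT vehicle libraries, where no count allows up to 0.158 CPM. It was not tested there, and no difference was detectable at this depth. Such limits cover counting error only.

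**Figure D1:**
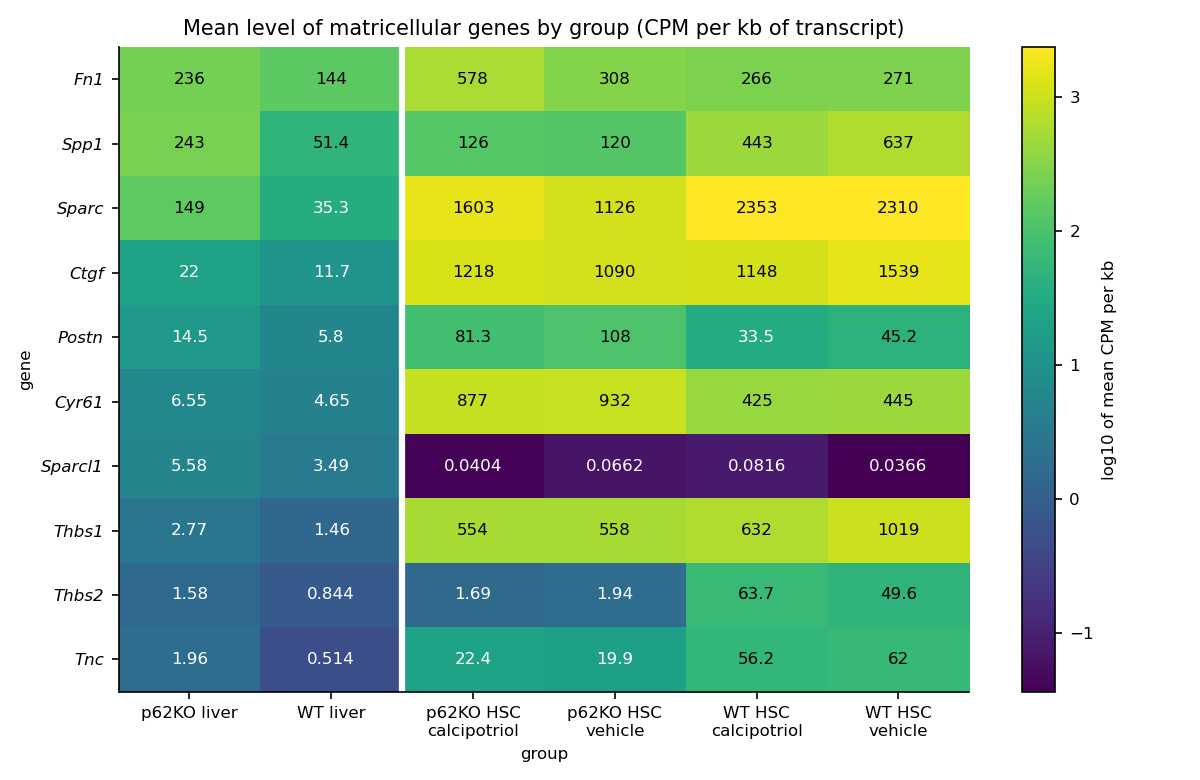
Mean level of each gene in each group, as CPM per kb of transcript (printed in each cell, n = 3 per liver group and 2 per stellate cell group), with the colour on a log10 scale and the genes ordered by their level in WT liver. Fn1 leads in WT liver at 144 CPM per kb, Sparc leads in every stellate cell group, and Sparcl1 is under 0.1 CPM per kb in all stellate cell groups; liver and stellate cell columns come from tables scaled separately.

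Promoter sequence was at hand for 6 of the 10 genes (RefSeq, GRCm38.p6; 250 bases before to 50 after each start site). Shown are the 250 bases before the start site of the 2 genes that differed most between p62KO and WT stellate cells, Thbs2 and Spp1, which were lower in p62KO cells, and of the 2 that were higher there, Postn and Cyr61. They are written 5′ to 3′ along the gene, with matches to the searched motifs in capitals. For Spp1 and Postn, which have 2 listed start sites, the one whose window holds TATAAA is given. The other window of each holds no TATAAA. Its presence in the Spp1 and Postn windows shown is thus fixed by this choice and not comparable with its share of all promoters.
Thbs2 (minus strand, chr17:14694263-14694512): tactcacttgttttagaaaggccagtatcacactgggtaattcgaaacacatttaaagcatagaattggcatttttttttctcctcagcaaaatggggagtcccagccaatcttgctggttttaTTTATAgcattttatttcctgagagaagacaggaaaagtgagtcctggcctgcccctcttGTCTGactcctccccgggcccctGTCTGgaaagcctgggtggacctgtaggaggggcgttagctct
Spp1 (plus strand, chr5:104434861-104435110): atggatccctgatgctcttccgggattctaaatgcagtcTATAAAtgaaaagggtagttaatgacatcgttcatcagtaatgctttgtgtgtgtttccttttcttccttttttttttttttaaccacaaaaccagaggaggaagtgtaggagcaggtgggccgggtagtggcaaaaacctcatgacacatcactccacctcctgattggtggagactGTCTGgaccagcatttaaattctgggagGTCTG
Postn (plus strand, chr3:54360857-54361106): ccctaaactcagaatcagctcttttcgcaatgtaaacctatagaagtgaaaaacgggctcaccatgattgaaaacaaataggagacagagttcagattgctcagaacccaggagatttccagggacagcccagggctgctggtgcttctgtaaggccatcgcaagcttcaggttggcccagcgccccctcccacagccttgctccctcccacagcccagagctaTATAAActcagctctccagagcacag
Cyr61 (minus strand, chr3:145649986-145650235): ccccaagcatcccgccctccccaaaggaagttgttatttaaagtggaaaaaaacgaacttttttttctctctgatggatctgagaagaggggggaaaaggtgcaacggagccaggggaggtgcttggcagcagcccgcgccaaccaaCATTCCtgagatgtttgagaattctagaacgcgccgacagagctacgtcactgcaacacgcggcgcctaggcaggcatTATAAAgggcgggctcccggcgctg

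Both strands were searched for the TEAD motif CATTCC, the AP-1 motif TGANTCA and the SMAD motif CAGAC. The letters TATAAA of the TATA box and the CArG box were searched likewise, and no matches of different motifs overlapped in these windows. Cyr61, a textbook target of the YAP and TEAD factors, held CATTCC at -103 and TATAAA at -25 from its start site. CATTCC was found in 14.7% and TATAAA in 13.6% of the 32851 promoters of 300 bases in the RefSeq table. Postn held TATAAA at -26 and no other searched motif in the window shown. Thbs2 held CAGAC on the minus strand of the gene (GTCTG) at -66 and -43 and TATAAA, also reversed, at -126. Spp1 held CAGAC, reversed, at -33 and -5 and TATAAA at -211. CAGAC, a short motif, was found in at least 1 window of each of the 6 genes, for Cyr61 only after the start site. It was found in 49.6% of all promoters counted singly. Spp1, Tnc and Postn have 2 windows each, so these counts are not of like units. TGANTCA (7.81% of all promoters) and the CArG box (1.63%) were found in no window of the 6 genes. A match describes letters in these windows and not a binding site.

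In p62KO livers 4 of the 10 genes rose over WT livers: Sparc, Spp1, Tnc and Postn. This is to be read against 4.48% of all 12851 tested genes that were higher at the same threshold (an adjusted p under 0.05 in edgeR's quasi-likelihood test, Benjamini-Hochberg over all tested genes) and 3.45% that were lower. None of the 10 fell, all 10 fold changes were positive, and their median log2 fold change was 0.91, against 0.02 over all tested genes. In 9 of the 10, every p62KO liver lay above every WT liver, as 18.4% of all tested genes did.

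Sparc (osteonectin, a collagen-binding glycoprotein; GRCm38, as for all positions here, chromosome 11, 55394500 to 55423183) stood at 380.0, 459.8 and 185 CPM in p62KO livers, against 78.3, 90.5 and 74.5 CPM in WT livers. The groups did not overlap, and p62KO liver 3 was the lowest of its group. Sparc rose by 2.07 ± 0.318 (log2 fold change ± SE; 4.21-fold, edgeR adjusted p = 0.0326). Sparc lies 5.195 Mb from Sqstm1. Among 191 tested genes within 15 Mb of Sqstm1, 9 were higher and 14 lower in p62KO livers, with a median log2 fold change of -0.04. Over all 12851 tested genes, 4.48% were higher and 3.45% lower.

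Spp1 (osteopontin, a ligand of integrins and CD44; chromosome 5, 104435118 to 104441050) stood at 477, 478 and 144 CPM in p62KO livers, against 93.0, 91.9 and 47.6 CPM in WT livers. p62KO livers 1 and 2 were nearly equal, and p62KO liver 3 lay much nearer to the WT livers without reaching them. Spp1 rose by 2.24 ± 0.483 (4.73-fold, edgeR adjusted p = 0.0420), a change that did not differ from that of Sparc beyond the SE.

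Tnc (tenascin C, a modular glycoprotein of injured tissue; chromosome 4, 63959785 to 64047015) stood at 11.9, 19.7 and 10.2 CPM in p62KO livers, against 4.35, 4.98 and 1.62 CPM in WT livers. The groups did not overlap, at levels far below those of Sparc. Tnc rose by 1.93 ± 0.423 (3.82-fold, edgeR adjusted p = 0.0424).

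Postn (periostin, which binds integrins and collagen; chromosome 3, 54361109 to 54391037) stood at 39.1, 60.2 and 39.7 CPM in p62KO livers, against 15.4, 20.6 and 19.7 CPM in WT livers. All 3 p62KO livers lay well above the WT livers, and p62KO liver 3 was not low here. Postn rose by 1.32 ± 0.203 (2.50-fold, edgeR adjusted p = 0.0326).

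The other 6 genes did not pass the threshold. Thbs2 (thrombospondin 2, which binds matrix proteases and restrains blood vessel growth; chromosome 17, 14665500 to 14694235) stood at 7.85, 11.02 and 8.997 CPM in p62KO livers, against 5.01, 3.62 and 6.30 CPM in WT livers (log2 fold change 0.90 ± 0.240, edgeR adjusted p = 0.0580). Sparcl1 (hevin, a relative of Sparc; chromosome 5, 104079111 to 104113733) stood at 19.8, 13.5 and 12.9 CPM, against 10.4, 9.45 and 9.03 CPM in WT livers (0.68 ± 0.189, edgeR adjusted p = 0.0642). Fn1 (fibronectin, on which cells build matrix fibrils; chromosome 1, 71585520 to 71653200) stood at 2669, 1795 and 1412 CPM, against 1210.2, 1088 and 1288 CPM in WT livers (0.71 ± 0.258, edgeR adjusted p = 0.1095). These 3 kept their groups apart, by a narrow margin for Fn1, and each passed in DESeq2 (adjusted p = 0.0208, 0.0354 and 0.0318), which called 7 of the 10 genes.

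Thbs1 (thrombospondin 1, an activator of latent TGF-beta; chromosome 2, 118111876 to 118127133) stood at 19.98, 14.4 and 14.1 CPM in p62KO livers, against 13.7, 7.13 and 4.79 CPM in WT livers (0.92 ± 0.362, edgeR adjusted p = 0.1301). Ctgf (CCN2, a profibrotic target of YAP and TGF-beta; chromosome 10, 24595442 to 24598683) was the 1 gene whose groups overlapped, at 74.2, 48.6 and 41.8 CPM in p62KO livers, against 18.3, 42.9 and 26.5 CPM in WT livers (0.91 ± 0.334, edgeR adjusted p = 0.1132). Cyr61 (CCN1, a relative of Ctgf that binds integrins; chromosome 3, 145646976 to 145649981) stood at 14.5, 12.03 and 13.1 CPM in p62KO livers, against 11.7, 9.40 and 7.02 CPM in WT livers (0.49 ± 0.199, edgeR adjusted p = 0.1374).

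**Figure D2:**
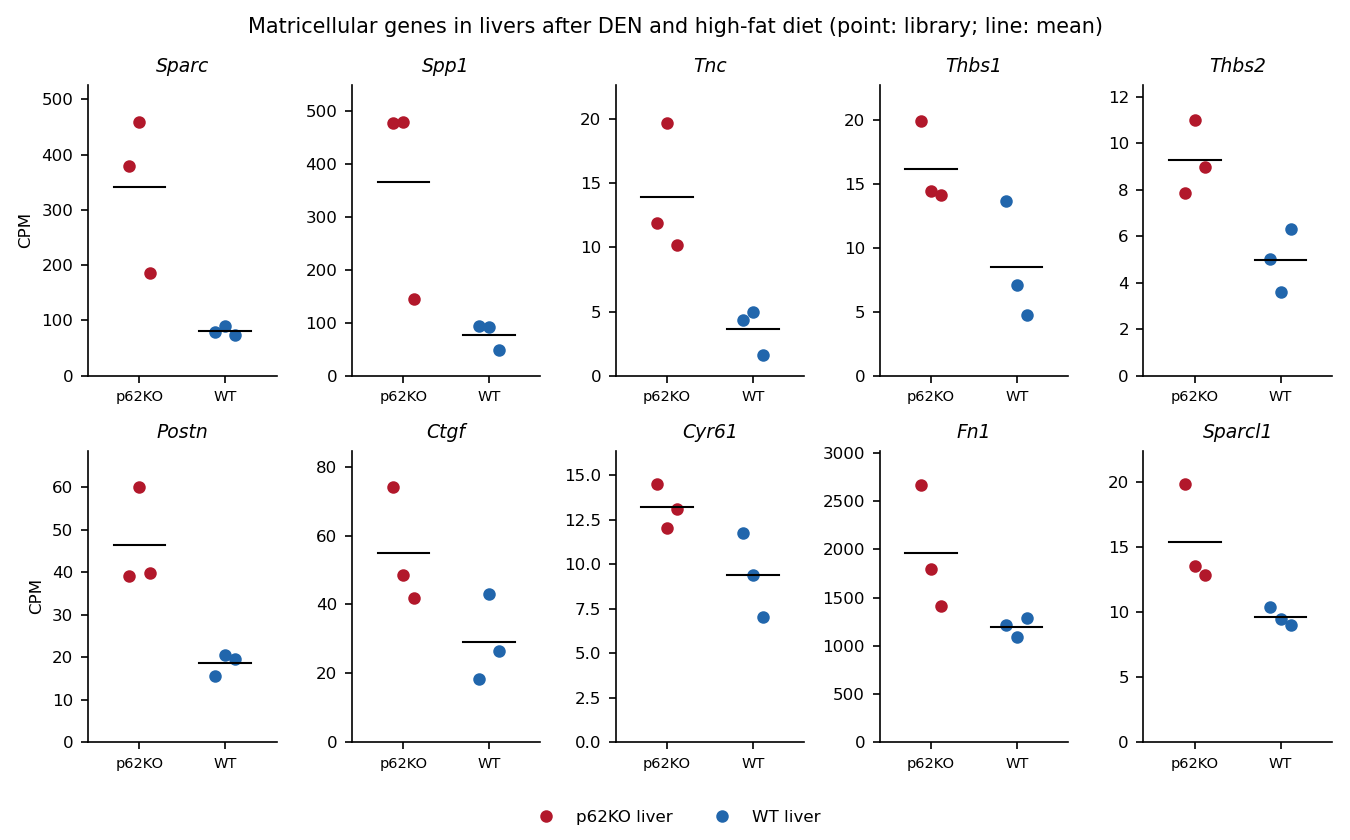
CPM of each gene in each liver library (points; p62KO left, WT right; line, mean of 3), with a linear axis from 0 for each gene. Every p62KO liver lies above every WT liver for 9 genes, Ctgf being the exception, and p62KO liver 3 is the lowest p62KO point for Sparc (185 CPM) and Spp1 (144 CPM).

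The liver calls were lost without most single libraries. Without WT liver 1, 2 or 3, or without p62KO liver 2, none of the 10 genes passed, and without p62KO liver 1 only Postn did, while all genes called numbered 12, 22, 3, 9 and 110, against 1020 with every library. Without p62KO liver 3, all 4 still passed, as did Thbs2, Fn1 and Sparcl1, and 3669 genes in all. The fold changes moved less: over the 6 fits, Sparc stayed between 1.79 and 2.36 on the log2 scale, Spp1 between 1.97 and 2.61, Tnc between 1.56 and 2.20 and Postn between 1.08 and 1.43, with edgeR adjusted p up to 0.124, 0.151, 0.153 and 0.120.

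Markers of several liver cell types moved with these genes. In whole liver, more cells of a type and more RNA per cell cannot be told apart. Stellate cell and fibroblast markers summed to 728 to 1257 CPM in p62KO livers, against 416 to 508 CPM in WT livers, and 5 of 11 rose, with none under 1 CPM. Macrophage markers summed to 918 to 1075 CPM, against 372 to 751 CPM, and 5 of 10 rose. Cholangiocyte markers summed to 46.0 to 174 CPM, against 28.9 to 35.8 CPM, and 3 of 8 tested rose. Cell cycle markers summed to 23.7 to 45.4 CPM, against 4.01 to 7.36 CPM, and 5 of 6 rose. No endothelial marker of 8 (158 to 258 against 138 to 196 CPM) and no T and NK cell marker of 7 (7.03 to 29.1 against 6.40 to 8.81 CPM) passed, and of 8 hepatocyte markers (81522 to 132223 against 91125 to 122063 CPM) only Ttr did, which fell. These counts are to be read against 4.48% higher and 3.45% lower among all 12851 tested genes. The part of these cell types in the liver result was not tested.

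Set against the summed stellate cell markers of the same liver, Sparc came to 43.2%, 36.6% and 25.4% of that sum in p62KO livers, against 18.8%, 17.8% and 16.1% in WT livers. Tnc came to 1.35%, 1.57% and 1.40%, against 1.05%, 0.981% and 0.351%. Postn came to 4.44%, 4.79% and 5.46%, against 3.71%, 4.06% and 4.27%. For these 3 the p62KO livers stayed above the WT livers, by little for Postn. Spp1 came to 54.3%, 38.0% and 19.8%, against 22.4%, 18.1% and 10.3%, and there p62KO liver 3 was below WT liver 1. The other 6 genes overlapped as well. Fn1, for example, came to 304%, 143% and 194% of the sum in p62KO livers, against 291%, 214% and 279% in WT livers. Cyr61 came to 1.65%, 0.957% and 1.80%, against 2.83%, 1.85% and 1.52%.

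These ratios depended on the marker. Dcn alone made up 20.7% to 37.8% of the marker sum in p62KO livers and 48.3% to 56.1% in WT livers, at 261 to 282 CPM and 201 to 285 CPM. The genes were also set against Col1a1, a collagen chain of fibrotic matrix, a comparison chosen after seeing the data. Col1a1 itself rose in p62KO livers (log2 fold change 2.54 ± 0.405, edgeR adjusted p = 0.0331), by more than any of the 10 genes. Genes that rose less, or not at all, are therefore lowered in this ratio by construction. None of the 10 genes was higher in every p62KO liver, 4 overlapped and 6 were lower. The matching share of all tested genes was determined for neither ratio. Sparc came to 4.56, 2.29 and 2.76 times the Col1a1 level in p62KO livers, against 3.69, 4.73 and 3.74 times in WT livers, with overlap, as for Spp1, Tnc and Ctgf. Postn came to 0.470, 0.299 and 0.593 times, against 0.728, 1.077 and 0.989 times in WT livers, so that its order turned round. Thbs1, Thbs2, Cyr61, Fn1 and Sparcl1 were lower relative to Col1a1 as well.

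Of 20 tested other matricellular genes, 5 rose in p62KO livers and none fell (25% of the list, against 4.48% of all tested genes higher; median log2 fold change 0.61). Genes are named here by smallest p and not by largest change. They were Ccdc80, a matrix-bound secreted protein (1.16 ± 0.161, edgeR adjusted p = 0.0270), and Fstl1, a secreted relative of Sparc (1.41 ± 0.237, edgeR adjusted p = 0.0331). Efemp2, a fibulin of elastic fibres, came next (1.42 ± 0.313, edgeR adjusted p = 0.0430). Of 23 receptors of matricellular proteins, 4 rose and none fell (17.4% of the list; median 0.51), among them the collagen receptor Ddr1 (2.01 ± 0.347, edgeR adjusted p = 0.0331) and the integrin chains Itga2 (4.15 ± 0.910, edgeR adjusted p = 0.0425) and Itgb5 (0.49 ± 0.111, edgeR adjusted p = 0.0446). Of 20 further YAP/TEAD targets, 4 rose and none fell (20% of the list; median 0.44), among them Ajuba (2.09 ± 0.218), Axl (1.12 ± 0.140) and Myof (1.75 ± 0.281; edgeR adjusted p = 0.0216, 0.0264 and 0.0331). Of 21 immediate early and SRF targets, Ier3 alone rose (1.75 ± 0.394, edgeR adjusted p = 0.0442; median of the list 0.50), a share of 4.76% that is close to the 4.48% of all tested genes.

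Among 9612 liver genes with a mean of at least 5 CPM, those whose log2 CPM followed the 4 risen genes most closely over the 6 livers were Nucb2 and Atad2 for Sparc (Pearson r = 0.997 and 0.996), Tubb5 and Ankrd27 for Spp1 (0.997 and 0.995), Camta2 and Plac8 for Tnc (0.996 and 0.995), and Ttpal and Pmepa1 for Postn (0.992 and 0.989). The 6 points share 2 groups, so these values describe likeness of pattern in these libraries and nothing more.

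In stellate cells the picture differed by gene. With vehicle, 5 of the 9 tested genes fell in p62KO cells relative to WT cells (Thbs2, Spp1, Tnc, Sparc and Thbs1) and 2 rose (Postn and Cyr61), against 5.94% of all 12681 tested genes lower and 6.95% higher. With calcipotriol, 3 fell (Thbs2, Spp1 and Tnc) and 2 rose (Postn and Cyr61), against 9.53% lower and 10.3% higher. The median log2 fold change of the 9 was -0.87 with vehicle and -0.19 with calcipotriol, against 0.03 and -0.01 over all tested genes. The 2 comparisons share no library, but they come from 1 fit with a common estimate of the spread and are not independent.

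Thbs2 changed most. With vehicle it stood at 15.9 and 6.97 CPM in p62KO cells, against 293 and 291 CPM in WT cells, and with calcipotriol at 9.21 and 10.7 CPM in p62KO cells, against 401 and 350.5 CPM in WT cells. No p62KO library came near a WT library. Thbs2 fell in both, with a log2 fold change of -4.68 ± 0.373 with vehicle (25.6-fold lower, edgeR adjusted p = 0.000471) and -5.24 ± 0.382 with calcipotriol (37.7-fold lower, edgeR adjusted p = 0.000294).

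Spp1 stood with vehicle at 191 and 171 CPM in p62KO cells, against 963 and 958 CPM in WT cells, and with calcipotriol at 189 and 191 CPM in p62KO cells, against 498 and 836 CPM in WT cells. The 4 p62KO libraries lay close together, while the WT calcipotriol pair spread widely. Spp1 fell in both, with a log2 fold change of -2.41 ± 0.257 with vehicle (5.30-fold lower, edgeR adjusted p = 0.00141) and -1.81 ± 0.252 with calcipotriol (3.51-fold lower, edgeR adjusted p = 0.00385).

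Tnc stood with vehicle at 158 and 125 CPM in p62KO cells, against 446 and 434 CPM in WT cells, and with calcipotriol at 134 and 185 CPM in p62KO cells, against 418 and 380.3 CPM in WT cells. The highest p62KO library, at 185 CPM, stayed far below the lowest WT library, at 380.3 CPM. Tnc fell in both, with a log2 fold change of -1.64 ± 0.219 with vehicle (3.11-fold lower, edgeR adjusted p = 0.00377) and -1.33 ± 0.217 with calcipotriol (2.51-fold lower, edgeR adjusted p = 0.00711).

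Sparc and Thbs1 passed with vehicle and not with calcipotriol. Sparc stood at 1991 and 3189 CPM in p62KO vehicle cells, against 5419 and 5209 CPM in WT vehicle cells, and fell by 1.04 ± 0.248 (edgeR adjusted p = 0.0301). Among 192 tested genes within 15 Mb of Sqstm1, 10 were higher and 8 lower in p62KO vehicle cells. Over all 12681 tested genes, 6.95% were higher and 5.94% lower. With calcipotriol Sparc stood at 3419 and 3956 CPM in p62KO cells, against 4920.1 and 5902 CPM in WT cells, and the log2 fold change of -0.55 ± 0.246 missed the threshold (edgeR adjusted p = 0.1365). The p62KO libraries lay below the WT libraries under both treatments. Thbs1 stood at 2929.8 and 3600.1 CPM in p62KO vehicle cells, against 5964 and 5952 CPM in WT vehicle cells, and fell by 0.87 ± 0.215 (edgeR adjusted p = 0.0339). With calcipotriol its groups overlapped, at 2855 and 3629 CPM in p62KO cells and 3263 and 4128 CPM in WT cells (-0.19 ± 0.213, edgeR adjusted p = 0.5431). Whether the genotype difference itself depended on treatment is the test of the difference of responses given below, which no gene passed.

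Postn and Cyr61 went the other way. Postn stood with vehicle at 276 and 419 CPM in p62KO cells, against 144 and 145 CPM in WT cells, and rose by 1.26 ± 0.249 (2.40-fold, edgeR adjusted p = 0.0159). With calcipotriol it stood at 304 and 217 CPM in p62KO cells, against 108 and 107 CPM in WT cells, and rose by 1.28 ± 0.249 (2.43-fold, edgeR adjusted p = 0.0125). The p62KO pairs spread and the WT pairs did not, but no groups overlapped. Cyr61 stood with vehicle at 2129 and 1634 CPM in p62KO cells, against 899 and 896 CPM in WT cells, and rose by 1.07 ± 0.210 (2.10-fold, edgeR adjusted p = 0.0159). With calcipotriol it stood at 1541 and 2002 CPM in p62KO cells, against 853 and 864 CPM in WT cells, and rose by 1.05 ± 0.210 (2.06-fold, edgeR adjusted p = 0.0139).

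Ctgf, which like Cyr61 belongs to the CCN family and to the targets of YAP, did not pass. With vehicle it stood at 2311 and 3118 CPM in p62KO cells, against 3821 and 3842 CPM in WT cells (-0.50 ± 0.214, edgeR adjusted p = 0.1615), and with calcipotriol at 2639.6 and 3427 CPM in p62KO cells, against 2842 and 2874 CPM in WT cells (0.09 ± 0.214, edgeR adjusted p = 0.7925). Ctgf lies on chromosome 10, whose 626 tested genes had a median log2 fold change of -0.64 with vehicle and -0.71 with calcipotriol in p62KO cells, against 0.01 over 615 genes in liver. A single median per chromosome was then removed, that of the fold changes averaged over both treatments (-0.66 for chromosome 10). With it removed, Ctgf stood at 0.17 with vehicle, a change of sign, and at 0.75 with calcipotriol, and passed in neither (edgeR adjusted p = 0.680 and 0.0598). Fn1 stood with vehicle at 1657 and 3463 CPM in p62KO cells, against 2246 and 2261 CPM in WT cells, which lay between the 2 p62KO values (0.18 ± 0.341, edgeR adjusted p = 0.7572). With calcipotriol both p62KO libraries, at 3727 and 5891 CPM, lay above the WT libraries, at 2169 and 2252 CPM, and the log2 fold change of 1.12 ± 0.345 narrowly missed the threshold (edgeR adjusted p = 0.0522). That value passed in 8 of 16 alternative fits, DESeq2 among them (adjusted p = 0.00559), with adjusted p between 0.000321 and 0.228.

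**Figure D3:**
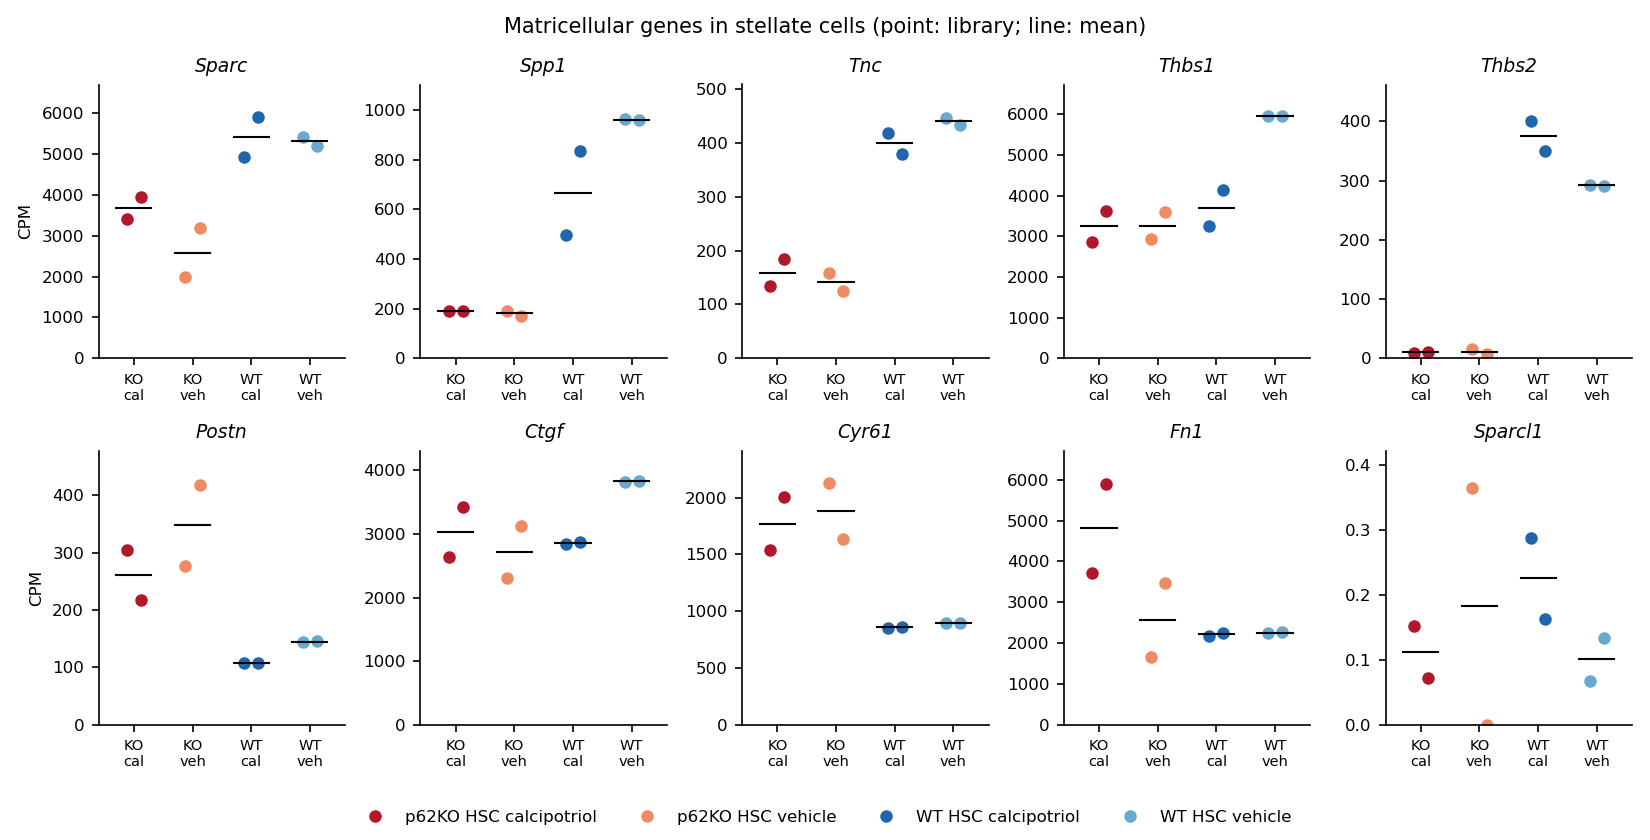
CPM of each gene in each stellate cell library (points; from left, p62KO calcipotriol, p62KO vehicle, WT calcipotriol and WT vehicle; line, mean of 2), with a linear axis from 0 for each gene. Thbs2, Spp1 and Tnc are low and Cyr61 and Postn high in all 4 p62KO libraries, the WT vehicle points nearly coincide, and Sparcl1 stays under 0.4 CPM.

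**Figure D4:**
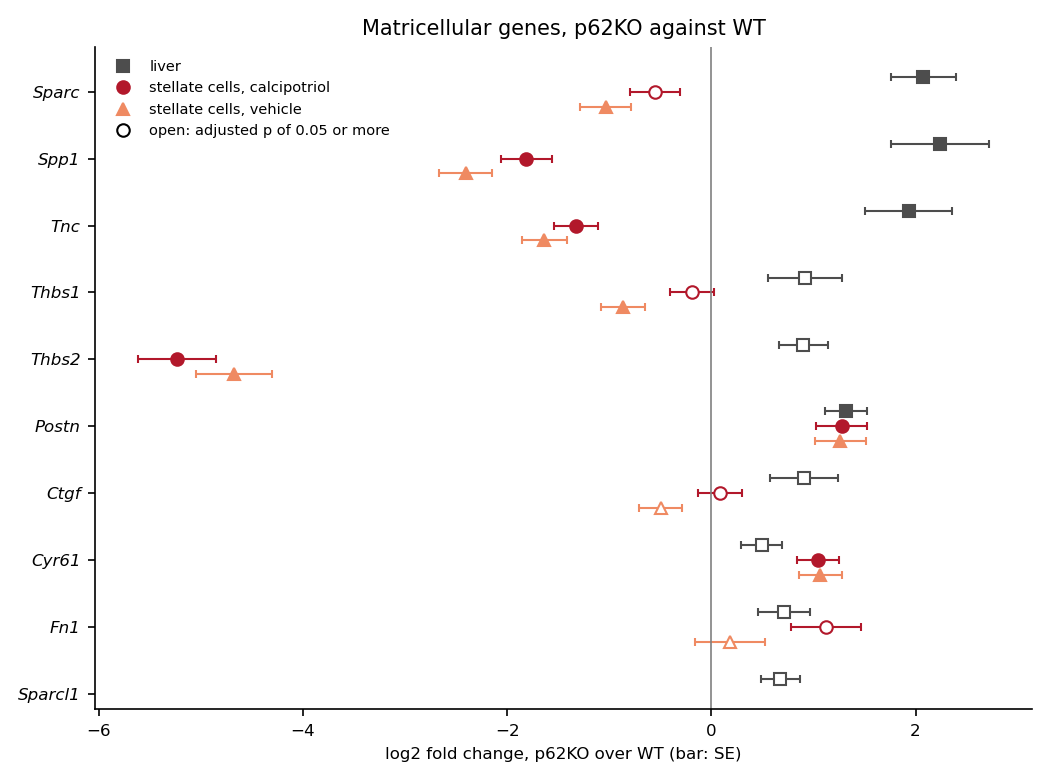
Log2 fold change of p62KO over WT with its SE for each gene in liver (squares), in calcipotriol-treated (circles) and in vehicle-treated stellate cells (triangles), filled where the edgeR adjusted p is under 0.05. Sparc, Spp1 and Tnc lie right of 0 in liver and left of 0 in stellate cells, Postn lies near 1.3 in all 3, and Thbs2 lies at -4.68 with vehicle and -5.24 with calcipotriol in stellate cells, against 0.90 in liver.

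Thbs2, Spp1 and Tnc fell with vehicle in every fit that left out 1 library. The other vehicle calls depended on single libraries. Sparc and Thbs1 did not pass without either WT vehicle replicate, either WT calcipotriol replicate or p62KO vehicle replicate 1 (edgeR adjusted p up to 0.191 and 0.215). Postn did not pass without either WT vehicle replicate (up to 0.145), and Cyr61 without either of these or p62KO vehicle replicate 1 (up to 0.157). With calcipotriol, Thbs2 and Spp1 fell in every such fit, while Tnc, Postn and Cyr61 did not pass without WT calcipotriol replicate 1 or 2 (edgeR adjusted p up to 0.0672, 0.1095 and 0.1115). Without both libraries that stand apart, all 9 genes passed with vehicle, Fn1 at 0.63 and Ctgf at -0.29 included, and 8 of 9 with calcipotriol, Ctgf being the exception. By construction that fit takes its spread from the WT pairs alone, and it called 5459 genes with vehicle and 5606 with calcipotriol.

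Whole chromosomes were shifted between the p62KO and WT lines. Postn and Cyr61 lie on chromosome 3, whose 633 tested genes had a median log2 fold change of 0.43 with vehicle and 0.21 with calcipotriol. The median removed, averaged over both treatments as above, was 0.31 for chromosome 3. With it removed, Postn stood at 0.95 and Cyr61 at 0.76 with vehicle and neither passed (edgeR adjusted p = 0.0506 and 0.0616). With calcipotriol Postn still passed and Cyr61, at 0.74, did not (edgeR adjusted p = 0.0581). Thbs1, on chromosome 2 (median removed -0.055), stood at -0.81 with vehicle and narrowly missed (edgeR adjusted p = 0.0537). Thbs2, Spp1, Tnc and Sparc still passed with vehicle. Spp1, on chromosome 5 (median removed -0.343), stood at -2.06 with vehicle, against -2.41 before. Tnc, on chromosome 4 (median removed 0.392), stood at -2.03, against -1.64 before. With calcipotriol Thbs2, Spp1 (-1.47) and Tnc (-1.72) still passed, and Fn1 newly passed (1.32, edgeR adjusted p = 0.04795).

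Of 18 tested other matricellular genes, 8 rose and 1 fell in p62KO cells with vehicle (44.4% and 5.56% of the list, against 6.95% and 5.94% of all tested genes; median log2 fold change 1.11), and 6 rose and 2 fell with calcipotriol (33.3% and 11.1%, against 10.3% and 9.53%; median 0.94). Other genes of the list rose further, but those with the smallest p are named. With vehicle they were Smoc2, a relative of Sparc (1.75 ± 0.210, edgeR adjusted p = 0.00221), Igfbp7, a secreted binder of insulin-like growth factors (3.30 ± 0.473, edgeR adjusted p = 0.00491), and Ecm1 (1.43 ± 0.270, edgeR adjusted p = 0.0140). With calcipotriol Smoc2 (1.33 ± 0.204) and Igfbp7 (2.39 ± 0.454) rose again, and Fbln5, a fibulin of elastic fibres, fell (-0.98 ± 0.187; edgeR adjusted p = 0.00580, 0.0115 and 0.0116). This list and the 9 described genes therefore had medians of opposite sign in the same cells.

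The other 3 lists lay nearer to these shares of all tested genes, apart from the last one with calcipotriol. Of 24 receptors, 2 rose and 1 fell with vehicle (8.33% and 4.17%; median 0.38). These were the integrin chains Itga1 (1.49 ± 0.274) and Itgb5 (1.18 ± 0.292), which rose, and Itgb8, which fell (-2.99 ± 0.590; edgeR adjusted p = 0.0123, 0.0340 and 0.0159). With calcipotriol 2 rose and 2 fell (8.33% each; median 0.12), among them Itga5, part of the classical fibronectin receptor (0.94 ± 0.196), Itga2 (3.85 ± 0.909) and Itgb8 (-3.64 ± 0.622; edgeR adjusted p = 0.0158, 0.0239 and 0.00794). Of 22 further YAP/TEAD targets, 2 rose and 2 fell with vehicle (9.09% each; median -0.17), and 1 rose and 3 fell with calcipotriol (4.55% and 13.6%; median -0.17). Gadd45a rose under both (2.36 ± 0.259 and 2.21 ± 0.252), Myof fell under both (-1.16 ± 0.179 and -0.91 ± 0.178), Ankrd1 rose with vehicle (0.86 ± 0.227) and F3 fell with calcipotriol (-0.80 ± 0.193; edgeR adjusted p between 0.00154 and 0.0425). Of 22 immediate early and SRF targets, 2 rose and 1 fell with vehicle (9.09% and 4.55%; median 0.04), and 5 rose with calcipotriol (22.7%; median 0.44). Tpm1 (1.24 ± 0.180 and 1.07 ± 0.179) and Dusp1 (1.00 ± 0.237 and 1.02 ± 0.236) rose under both, Egr3 fell with vehicle (-2.57 ± 0.633), and Ier2 rose with calcipotriol (1.19 ± 0.238; edgeR adjusted p between 0.00511 and 0.0335).

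Of 9 tested stellate cell and fibroblast markers, 3 rose in p62KO cells with vehicle, where the list summed to 8912 to 9094 CPM, against 4337 to 4377 CPM in WT cells. With calcipotriol 4 rose and 1 fell, and the list summed to 10545 to 15832 CPM in p62KO cells, against 4541 to 4872 CPM in WT cells. Among all 12681 tested genes, 6.95% were higher and 5.94% lower with vehicle, and 10.3% and 9.53% with calcipotriol. The part of the shift of these markers in the results above was not tested.

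Among 10083 stellate cell genes with a mean of at least 5 CPM, the closest patterns over the 8 libraries were those of Sqstm1 and Adamts1 for Thbs2 (Pearson r = 0.998 for both), Elk3 and Ctnna1 for Spp1 (0.996 and 0.995), Mcm3ap and Pcdhgc3 for Tnc (0.998 and 0.997), Adrb1 and Fez2 for Sparc (0.995 and 0.988), Ltbp1 and Dgkh for Thbs1 (0.978 and 0.971), Klf10 and Ccnb1 for Postn (0.986 for both), and S100a4 and Htra2 for Cyr61 (0.994 and 0.993). The 8 points share 4 groups, and Sqstm1 is the deleted gene, so that the Thbs2 value restates its low level in all 4 p62KO libraries.

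Calcipotriol itself called none of the 9 genes in either genotype. In p62KO cells edgeR called 0 of 12681 genes for calcipotriol against vehicle (0%), with 1714 at an unadjusted p under 0.05, and DESeq2 called 54, no member among them. In WT cells edgeR again called 0 of 12681 genes (0%), with 301 at an unadjusted p under 0.05. DESeq2 called 16, again no member. The edgeR fit takes its spread from all 4 groups, the more variable p62KO pairs included. Their chi-squared per degree of freedom was 200.4 and 61, against 12.2 and 1.66 for the WT pairs. The absence of WT calls therefore does not show an absence of effect, and a fit of only the WT groups was not run. Averaged over both genotypes edgeR called 3 genes (0.0237%), with 763 at an unadjusted p under 0.05, and DESeq2 called 47. No member was among them in either, and no gene of the further lists was called by edgeR for calcipotriol. These comparisons use the same libraries as the genotype comparisons and are not independent of them.

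In p62KO cells Fn1 had a log2 fold change of 0.91 ± 0.344 (edgeR adjusted p = 0.3611), at 3727 and 5891 CPM with calcipotriol, against 1657 and 3463 CPM with vehicle. The groups were apart, but each pair spread about as widely as the groups differed. Without p62KO calcipotriol replicate 1 the value was 1.22 and passed (edgeR adjusted p = 0.0434). Without both libraries that stand apart it was 0.10 and did not pass (edgeR adjusted p = 0.777). Sparc stood at 3419 and 3956 CPM with calcipotriol, against 1991 and 3189 CPM with vehicle (0.51 ± 0.246, edgeR adjusted p = 0.365), and it too was at 0.10 without both libraries that stand apart (edgeR adjusted p = 0.860). The other 7 lay between -0.42 (Postn) and 0.17 (Tnc), and their groups overlapped.

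In WT cells 7 of the 9 fold changes were negative, with a median of -0.14, against -0.003 over all genes. Thbs1 had a log2 fold change of -0.69 ± 0.214 (unadjusted p = 0.0112, edgeR adjusted p = 1), at 3263 and 4128 CPM with calcipotriol, against 5964 and 5952 CPM with vehicle. Both calcipotriol libraries were below both vehicle libraries. Spp1 stood at 498 and 836 CPM with calcipotriol, against 963 and 958 CPM with vehicle (-0.53 ± 0.244), Postn at 108 and 107 CPM, against 144 and 145 CPM (-0.43 ± 0.246), and Ctgf at 2842 and 2874 CPM, against 3821 and 3842 CPM (-0.42 ± 0.214). In these 3 the groups were apart as well, with edgeR adjusted p = 1 for each. The groups of Tnc, Cyr61 and Thbs2 were also apart. The share of all genes with groups apart was not determined, and the WT vehicle pair nearly coincided. Tnc (-0.14 ± 0.213), Cyr61 (-0.06 ± 0.208), Fn1 (-0.03 ± 0.341) and Sparc (0.03 ± 0.245) moved by less than their SE. Thbs2 had a positive value, 0.36 ± 0.317 (edgeR adjusted p = 1), at 401 and 350.5 CPM with calcipotriol, against 293 and 291 CPM with vehicle. Without both p62KO libraries that stand apart, Thbs1 (-0.67), Postn (-0.41) and Ctgf (-0.40) passed (edgeR adjusted p = 0.0222, 0.0227 and 0.0304), again with the spread taken from the WT pairs alone.

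**Figure D5:**
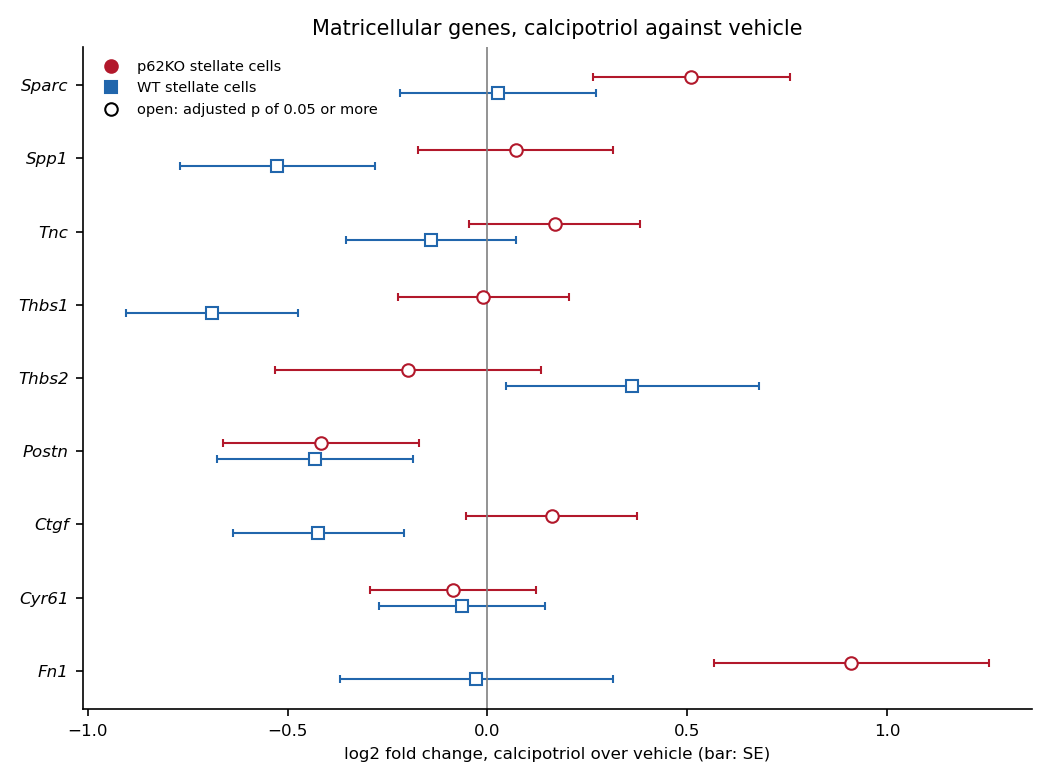
Log2 fold change of calcipotriol over vehicle with its SE for the 9 tested genes in p62KO (circles) and WT stellate cells (squares). All points are open, since no edgeR adjusted p is under 0.05, with Fn1 at 0.91 in p62KO cells and Thbs1 at -0.69 in WT cells the farthest from 0.

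Averaged over both genotypes, Postn (-0.42 ± 0.173) and Thbs1 (-0.35 ± 0.151) had an unadjusted p under 0.05 and an edgeR adjusted p of 0.6112. Postn stood at -0.42 in p62KO and -0.43 in WT cells, and it passed without both libraries that stand apart (-0.44, edgeR adjusted p = 0.0117), as did Thbs1 (-0.51, edgeR adjusted p = 0.0379) and Ctgf (-0.33, edgeR adjusted p = 0.0399), and without p62KO calcipotriol replicate 1 (-0.54, edgeR adjusted p = 0.0441).

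Whether the calcipotriol response differed between p62KO and WT cells was tested as the difference of the log2 fold changes. edgeR called 0 of 12681 genes (0%), with 677 at an unadjusted p under 0.05, with no member among them, and DESeq2 called 0. The estimates farthest from 0 among the members were those of Fn1 (0.94 ± 0.484), Thbs1 (0.68 ± 0.302), Spp1 (0.60 ± 0.346), Ctgf (0.58 ± 0.303) and Thbs2 (-0.56 ± 0.460; edgeR adjusted p = 0.7078 to 0.7247). The differences for Sparc (0.48 ± 0.347) and Tnc (0.31 ± 0.302) were smaller, and those for Postn (0.02 ± 0.346) and Cyr61 (-0.02 ± 0.293) were near 0. Without both libraries that stand apart the Fn1 difference was 0.11 (edgeR adjusted p = 0.8885). With an SE of about 0.3 to 0.5 on the log2 scale, differences of the size seen were not detectable with 2 libraries per group.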

How the data were processed

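Poly(A) RNA of livers and stellate cells was made into 6 and 8 directional libraries and sequenced from one end, per the labels' protocols. The authors deposited whole-number read counts per gene in 2 tables, one for liver and one for stellate cells. The build was mm10, per the submitters' processing notes, while the aligner and the counter are not given in the sources used here. Of the row names, 27 are gene symbols turned into dates.

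Each table was fitted separately with edgeR 4.0.16 (R 4.3.3; TMM scaling, filterByExpr, quasi-likelihood test, threshold 0.05 on p adjusted by Benjamini-Hochberg over all tested genes), the liver fit over 6 and the stellate cell fit over 8 libraries. CPM are counts per 1000000 of the TMM-scaled total, and CPM per kb divide them by the longest coding transcript. Positions matched 98.3% of 23420 symbols. SE was taken from the log2 fold change and its F value. DESeq2 1.42.0, other filters and scalings, left-out libraries, a replicate block and removed chromosome medians were alternatives. The fits were also run on simulated data in which each gene had the same spread in every group. The real stellate cell pairs did not spread alike, so no conclusion is drawn from that simulation.

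The members and the gene lists were chosen with earlier results of these data known. All 10 members were named, the 3 called genes with the smallest p of each further list, and for each called member the 2 genes with the most similar pattern. Single cell type markers were named after their values were seen.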

Additional observations from a re-analysis of the deposited data

Results flagged for a closer look

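For 5 genes the p62KO over WT log2 fold change had one sign in liver and the other in stellate cells. The genotypes did not overlap in any of these comparisons, except for Thbs1 with calcipotriol. In liver, 18.4% of all tested genes were likewise higher in every p62KO library. That share was not determined in stellate cells, where groups of 2 libraries separate easily. Sparc stood at 2.07 in liver, -1.04 in stellate cells with vehicle and -0.55 with calcipotriol. Spp1 stood at 2.24 in liver, -2.41 with vehicle and -1.81 with calcipotriol. Tnc stood at 1.93 in liver, -1.64 with vehicle and -1.33 with calcipotriol. Thbs2 stood at 0.90 in liver, where it did not pass, and at -4.68 with vehicle and -5.24 with calcipotriol. Thbs1 stood at 0.92 in liver, where it did not pass either, at -0.87 with vehicle, and at -0.19 with calcipotriol, where the groups overlapped (edgeR adjusted p = 0.5431). The tables were scaled separately, and the difference between liver and stellate cells was not tested.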

How the results depend on the processing

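Of the members' fold changes under the alternatives, 806 kept direction and call status, 45 no longer passed and 26 newly passed. A further 34, called in neither fit, changed sign, and 0 called values reversed. The 806 include values that were not called to begin with and had no call to lose. Of 11 alternatives each, the liver calls of Sparc, Spp1 and Tnc were lost in 5 and that of Postn in 4. In liver (4 members and 1020 genes called), DESeq2 called 7 members and 2372 genes, the replicate block 639 genes and a 2-fold minimum 462. Leaving out 1 library gave 0 to 7 members and 3 to 3669 genes. With vehicle (7 members, 1634 genes), removing chromosome medians gave 4 members and 1033 genes, leaving out both libraries that stand apart 5459 genes, and leaving out 1 library 3 to 7 members and 238 to 3635 genes. With calcipotriol (5 members, 2509 genes), leaving out both gave 8 members and 5606 genes, chromosome medians 1312, a fit of only the 2 groups 1293, a 2-fold minimum 1644, and leaving out 1 library 2 to 6 members and 272 to 6052 genes.

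For calcipotriol against vehicle, no filter on low counts gave 6 genes in p62KO cells, 3 in WT cells and 27 averaged, against 0, 0 and 3. DESeq2 gave 54, 16 and 47, and the block 6 averaged. Without both libraries that stand apart there were 5 genes in p62KO cells, 283 genes and 3 members in WT cells, and 301 genes and 3 members averaged. Leaving out 1 library gave 0 to 4559 genes and 0 to 1 members in p62KO cells, 0 to 3469 genes and 0 to 1 members averaged, and 0 to 2514 genes for the difference of responses.

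Same-numbered libraries did not consistently deviate together (r of 0.19, -0.19 and 0.14 in liver and -0.15 to 0.43 in stellate cells). The 0.43 was between WT calcipotriol and p62KO vehicle libraries. With 2 libraries per group, differently numbered libraries give the same r with the opposite sign, so the check is weak there. The numbers were not taken as pairs. With the replicate number as a block, 4 members passed in liver, 7 with vehicle and 6 with calcipotriol. Crossing the numbers in p62KO cells, chosen after seeing the data, called 0 genes for calcipotriol. The causes of these changes were not tested. With 2 libraries per group, leaving 1 out assumes that the lone library varies like the other groups.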

Other observations

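Other cell type markers in the stellate cells were low and are given as values. Macrophage markers summed to 43.1 to 48.5 CPM in p62KO calcipotriol, 38.6 to 211 in p62KO vehicle, 87.8 to 219 in WT calcipotriol and 79.6 to 83.7 in WT vehicle libraries, and none of 5 tested passed between genotypes. Cholangiocyte markers summed to 11.2 to 21.5 CPM, endothelial markers to 2.16 to 9.15 CPM and T and NK cell markers to at most 0.109 CPM over all 8 libraries. Cell cycle markers summed to 1334 to 1917 CPM in p62KO calcipotriol, 1675 to 2107 in p62KO vehicle, 1904 to 2140 in WT calcipotriol and 2334 to 2379 in WT vehicle libraries.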
